A study of Mus musculus with 3 samples.

Results

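Metallothioneins and the transporters of zinc and copper were examined in mpkCCD cells, a mouse line that models the principal cell of the kidney collecting duct, after knockdown of the glucocorticoid receptor (Nr3c1). The group holds 33 genes of 51803 gene symbols measured: 4 metallothioneins, the metal-responsive transcription factor Mtf1, 10 zinc exporters of the ZnT family (Slc30a), 14 zinc importers of the ZIP family (Slc39a), 2 copper transporters (Slc31a) and 2 copper-exporting ATPases. The members were taken by gene symbol. A single library was available from each of 3 stable lines made by lentiviral transduction and puromycin selection: shCtrl, which carries a non-targeting hairpin, and shGR1 and shGR2, which carry different hairpins against Nr3c1. The parental cells had been re-cloned for high Aqp2. All 3 lines were kept in dexamethasone, a synthetic glucocorticoid, after serum and the other supplements were withdrawn, and were sampled under vehicle without the vasopressin analogue dDAVP, so no group without a glucocorticoid was compared. The puromycin-selected lines are not described as single clones.

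Metallothioneins are small cysteine-rich proteins that bind zinc and copper and buffer the free metal in the cytosol. ZIP proteins bring zinc into the cytosol and ZnT proteins take it out, either across the plasma membrane or into organelles, while Slc31a1 carries copper in and Atp7a and Atp7b pump it into the secretory pathway or out of the cell. The zinc-sensing factor Mtf1 binds metal response elements in the promoters of the metallothioneins and Slc30a1, and glucocorticoids are textbook inducers of the metallothioneins.

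Abundance was given as FPKM, a fragment count divided by transcript length and sequencing depth, summed over the transcripts of each symbol. The FPKM totals were 462522, 435341 and 427704 in shCtrl, shGR1 and shGR2, and a rough estimate from the smallest values put the depth at about 35600000 to 39900000 fragments per library. Nr3c1 stood at 30.2 FPKM in the control, 4.41 in shGR1 and 9.13 in shGR2, or 14.6% and 30.3% of the control. The paper's own percentages of receptor mRNA left after knockdown were higher than these in both lines and nearly equal between the hairpins. Those percentages stand in its knockdown methods with no measure named there, and are not stated to come from these libraries. Of 9 textbook glucocorticoid-induced genes, 8 were lower in both knockdown lines, and Dusp1 was higher in both at 6.63, 9.05 and 10.3 FPKM. Expressed genes were those above 0.3 FPKM in at least 1 library. Of 11 principal cell markers, 8 were expressed, and 6 of these were lower in both lines, among them Aqp2 at 9.55, 0.751 and 2.14 FPKM. Aqp3 was higher in both at 6.49, 9.11 and 8.97 FPKM, and Hsd11b2 lay on both sides of the control. Beside both lists, 43.8% of all expressed genes were lower in both lines and 31.8% higher. Of markers of other cells, 2 of 8 intercalated cell genes were expressed (Atp6v1b1 and Rhcg, together 52.4, 22.5 and 24.2 FPKM, with Foxi1 at 0 and Slc4a1 and Slc26a4 under 0.3), as were 2 of 7 leukocyte genes (Csf1r and Cd68, together 20.5, 13.7 and 13.8, with Ptprc under 0.3), 5 of 7 fibroblast genes (together 9.01, 5.79 and 12.7), 1 of 5 loop and distal tubule genes (0.708, 0.322 and 0.874) and 1 of 8 proximal tubule genes (1.05, 1.10 and 2.10). None of the 5 endothelial genes was over 0.3 FPKM in any library. In these bulk samples, fewer cells of a type and less RNA per cell cannot be told apart, and the part of the lower principal and intercalated cell markers in the results was not tested.

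Of the 33 members 22 were expressed, as were 15438 of all genes. Of the 22, 12 (54.5%) were lower than shCtrl in both knockdown lines, where 43.8% of all expressed genes were lower, and 4 (18.2%) were higher in both, where 31.8% of all were higher. The remaining 6 lay on different sides of the control or at 0 in a line. Only Slc31a2 was at least 2-fold lower in both lines (3.66% of all genes were), and no member was at least 2-fold higher in both (2.54%). In shGR1 alone 16 members were lower (53% of all genes) and 6 higher (46.5%), and in shGR2 alone 14 were lower (58.1%) and 8 higher (41.5%). Counted in shGR1 alone, 4 members were at least 2-fold lower (Mt2, Mt3, Slc30a1 and Slc31a2), where 6.94% of all expressed genes were, and 2 higher (Slc39a4 and Slc39a10), where 5.34% were. Counted in shGR2 alone, 1 was lower (Slc31a2) and 1 higher (Mt3), where 5.96% and 4.62% of all genes were. Nothing is read from Mt3 in these counts, since it rests on 8 fragments or fewer per library and passed the filter only through shGR2, nor from Slc39a4, which passed it only through shGR1. The median mean log2 ratio of the 21 members with a ratio in both lines was -0.15, beside -0.05 for all genes. The background split itself depended on scaling: after median centring 38.1% of all genes were lower and 37.6% higher, and after quantile normalization 35.5% and 40%, whereas the members stayed at 12 lower with 5 higher under both.

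With 1 library per line, the difference of a single line from shCtrl had no replicate check. Each mean log2 ratio is given with its SD over the 2 hairpins. Both ratios share the same shCtrl library, so this SD leaves out any variation of the control. A small SD is thus no measure of how surely a gene differs from shCtrl. A limma fit of both knockdown lines against the lone control, which was assumed to vary as they do, left 1 residual degree of freedom. It called 0 of 15438 genes at a Benjamini-Hochberg adjusted p of 0.05 (0% lower and 0% higher), and the smallest adjusted p was 0.1987. At an unadjusted p under 0.05 it held 1458 genes lower (9.44%) and 699 higher (4.53%), and among the 22 expressed members 6 lower (27.3%) and 0 higher. The 6 were Mt1, Mt2, Slc30a5, Slc39a14, Slc31a2 and Atp7a. On simulated data of this size limma called 0% of genes changed 4-fold and 20.7% of those changed 8-fold. The simulated spread of each gene was taken from its own difference between the 2 hairpins, and changes were added upward only. The shares for the real data may therefore differ. Every expressed member with a ratio lay below a 4-fold mean difference. With robust moderation limma called 110 genes, 0 of them members.

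**Figure D1:**
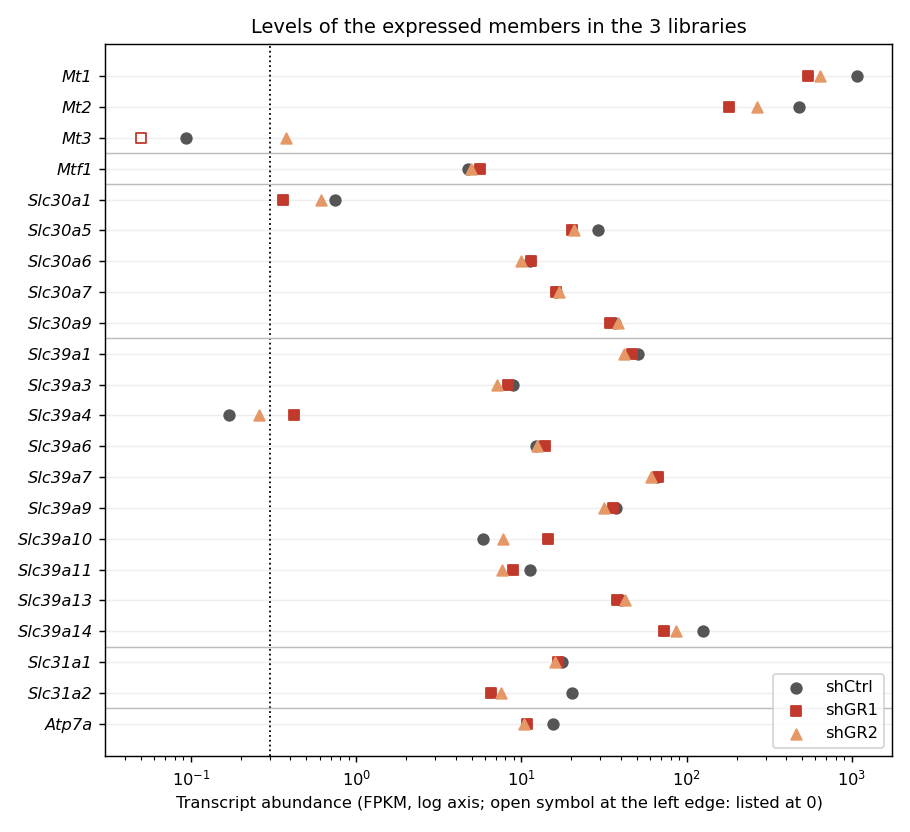
Abundance of the 22 expressed members in FPKM (horizontal log axis), 1 point per library, grouped by role, with the 0.3 FPKM limit dotted and a value of 0 drawn open at the left edge. Mt1 and Mt2 lie furthest to the right, and for Mt1, Mt2, Slc31a2, Atp7a, Slc30a5 and Slc39a14 both knockdown points lie left of the control.

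Mt1 was by far the most abundant member and both main metallothioneins were lower in both knockdown lines. Mt1 measured 1067 FPKM in the control, 542 in shGR1 and 643 in shGR2, which ranked it 14th, 44th and 33rd of all 51803 symbols in the 3 libraries. Mt2 measured 480, 180 and 266 FPKM, and ranked 66th, 282nd and 147th. In both genes shGR1 had the lower level of the 2 knockdown lines.

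The mean log2 ratio of Mt1 was -0.85 ± 0.17 (SD, n = 2 hairpins), or 50.8% and 60.2% of the control, so that shGR1 alone came close to 2-fold. For Mt2 it was -1.13 ± 0.40, or 37.5% and 55.3% of the control, so that Mt2 passed 2-fold in shGR1 alone. limma gave an adjusted p of 0.2788 for Mt1 and 0.308 for Mt2 (log2 difference with SE -0.85 ± 0.15 and -1.13 ± 0.28). Together the pair made up 0.334% of the FPKM total of shCtrl, against 0.166% for shGR1 and 0.212% for shGR2. The ratio of Mt2 to Mt1, both per length, was 0.450, 0.332 and 0.413.

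These values were also set beside those of genes of like abundance and length, since both transcripts are short. Among 699 genes with a mean over 100 FPKM, whose median log2 ratio was -0.07, Mt2 was the 8th lowest and Mt1 the 25th. Among the 76 of these with a transcript length of up to 700 nt the median was -0.39, and Mt2 was the 2nd and Mt1 the 7th lowest. With the trend of the ratio over transcript length removed, Mt1 stood at -0.68 and Mt2 at -0.96. Short abundant transcripts thus had a lower median than abundant genes in general, and Mt1 and Mt2 lay among the lowest of them.

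Mt1 and Mt2 are neighbours on chromosome 8 (GRCm38), Mt2 at 94172664 to 94173568 and Mt1 at 94179082 to 94180327, both on the plus strand and 5.513 kb apart. The 4 metallothionein genes span 43.13 kb. Their coding sequences of 183 nt are identical at 145 positions (79.23%), with a longest shared run of 20 nt, so reads can be assigned to either gene over most of their length. Of the Mt2 exons, 69.47% is overlapped by Gm45774 on the opposite strand, which reached 0.020 FPKM. The main Mt1 transcript, of 549 nt, held 1036, 530 and 623 FPKM, and the minor transcripts of 1085 nt and 633 nt were lower in both knockdown lines as well.

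The other metallothioneins of the same cluster were near the floor. Mt3, best known from brain, was at 0.093 FPKM in the control, 0 in shGR1 and 0.378 in shGR2, roughly 2, 0 and 8 fragments, and passed the expression limit through shGR2 alone. Mt4, known from stratified squamous epithelium, was at 0, 0.142 and 0 FPKM and was not expressed by this rule. No mean ratio was given for either gene.

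Summed over its transcripts, Mtf1, the zinc-sensing activator of the metallothioneins, was not lower. It measured 4.74 FPKM in the control, 5.60 in shGR1 and 4.92 in shGR2 (mean log2 ratio 0.15 ± 0.13). Its leading protein-coding transcript of 7631 nt lay on both sides of the control, at 3.23, 3.56 and 3.19 FPKM. A retained-intron transcript of 781 nt was higher in both lines, at 1.26, 1.74 and 1.47 FPKM. Of the Mtf1 exons 9.448% is overlapped by 1110065P20Rik on the opposite strand, which reached 6.26 FPKM. The sources used here do not give the library strand.

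The promoter windows of 4 members are shown because they hold the recognition letters of the factors named above: Mt1 and Mt2, the abundant metallothioneins, Slc30a1, the other textbook target of Mtf1, and Slc31a2, the member with the lowest ratio. Each runs from 250 bases before to 50 bases after the RefSeq start (RefSeq, GRCm38.p6), 5′ to 3′ on the gene strand, here the plus strand. Capitals mark the core of the metal response element (MRE), TGCACNC or TGCGCNC on either strand, and, in Mt1, 1 match to GNACA and TGTNC with 3 bases between them, a loose form of the palindrome that the glucocorticoid receptor binds. The regions are chr8:94178839-94179138 for Mt1, chr8:94172368-94172667 for Mt2, chr1:191906531-191906830 for Slc30a1 and chr4:62286179-62286478 for Slc31a2.
Mt1: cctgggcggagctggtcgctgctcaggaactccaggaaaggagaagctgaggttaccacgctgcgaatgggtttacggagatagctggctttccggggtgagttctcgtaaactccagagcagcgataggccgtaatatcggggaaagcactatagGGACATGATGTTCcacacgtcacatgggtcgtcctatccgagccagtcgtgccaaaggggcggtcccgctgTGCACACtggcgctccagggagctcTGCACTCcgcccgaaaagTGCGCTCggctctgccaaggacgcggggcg
Mt2: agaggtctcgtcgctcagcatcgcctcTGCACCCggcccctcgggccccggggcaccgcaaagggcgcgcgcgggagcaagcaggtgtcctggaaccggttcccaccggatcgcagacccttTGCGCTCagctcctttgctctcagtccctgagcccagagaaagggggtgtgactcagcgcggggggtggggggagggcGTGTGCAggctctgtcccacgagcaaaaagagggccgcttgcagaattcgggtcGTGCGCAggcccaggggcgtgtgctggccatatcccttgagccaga
Slc30a1: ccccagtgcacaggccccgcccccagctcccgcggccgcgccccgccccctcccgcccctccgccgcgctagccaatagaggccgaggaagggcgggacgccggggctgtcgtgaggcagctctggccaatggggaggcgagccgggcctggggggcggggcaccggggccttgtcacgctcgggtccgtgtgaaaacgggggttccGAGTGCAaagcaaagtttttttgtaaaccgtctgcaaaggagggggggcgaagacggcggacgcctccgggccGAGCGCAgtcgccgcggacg
Slc31a2: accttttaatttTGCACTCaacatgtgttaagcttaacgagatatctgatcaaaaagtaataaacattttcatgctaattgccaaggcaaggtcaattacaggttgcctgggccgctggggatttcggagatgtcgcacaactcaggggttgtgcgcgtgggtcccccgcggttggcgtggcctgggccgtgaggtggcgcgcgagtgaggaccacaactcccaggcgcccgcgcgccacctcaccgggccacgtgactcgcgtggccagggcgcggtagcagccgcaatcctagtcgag

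The Mt1 window holds 3 MRE cores, TGCACAC at -23, TGCACTC at 3 and TGCGCTC at 21, counted in bases from the start to the first base of the match. The Mt2 window holds 4: TGCACCC at -223, TGCGCTC at -128, and on the other strand TGCACAC at -50 and TGCGCAC at 5. Slc30a1 holds 2, TGCACTC at -43 and TGCGCTC at 31, both on the other strand, and Slc31a2 holds 1, TGCACTC at -238. Of 32851 promoter windows of the same length, 25.7% hold at least 1 core, 1.969% at least 3 and 0.5175% at least 4. RefSeq windows were found for 29 of the 33 members (34 windows), and 19 of the 34 hold at least 1 core (55.88%) and 4 at least 3 (11.76%), the last being Mt1, Mt2, Slc30a4 and Slc30a10, of which the latter pair was not expressed.

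The loose glucocorticoid receptor palindrome was matched in 0.4749% of all windows and, among the members, in Mt1 alone, as GGACATGATGTTC at -94. The full palindrome, AGAACA and TGTTCT with 3 bases between them, was in 0.009132% of windows and in no member. The core of the antioxidant response element, TGACNNNGC, bound by Nfe2l2, was in 12.39% of all windows and in 8 of the 34 member windows (23.53%). Of the 4 windows printed it was in Mt2 (TGACTCAGC at -79) and, on the other strand, in Slc30a1 (TGACAAGGC at -82) and Slc31a2 (TGACCTTGC at -164). These matches describe the letters of the windows and are not shown to be bound. The leading annotated starts differ from RefSeq by 7 to 46 nt in these genes.

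**Figure D2:**
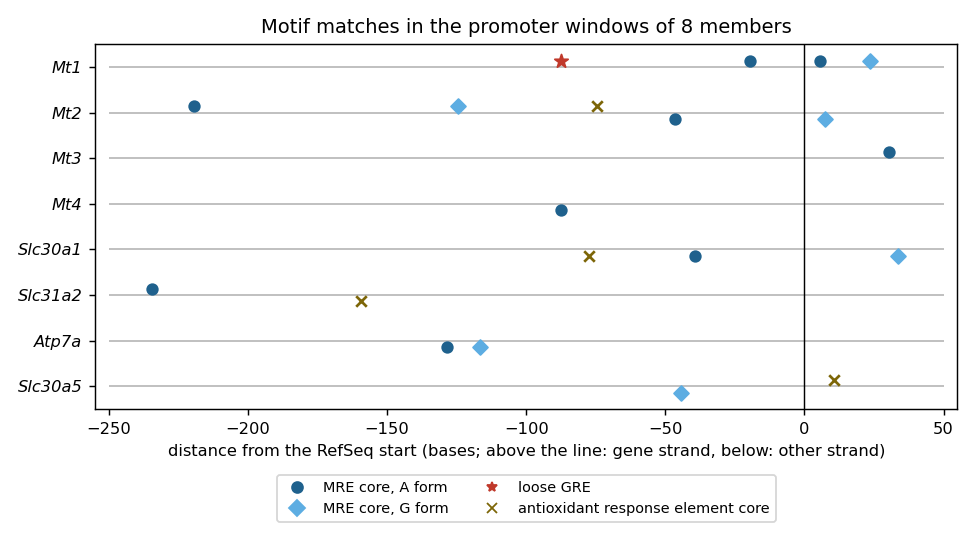
Motif matches in the promoter windows of 8 members by distance in bases from the RefSeq start, drawn above the line for the gene strand and below it for the other strand. Mt1 and Mt2 hold 3 and 4 MRE cores, and the single loose glucocorticoid receptor palindrome lies in Mt1 at -94.

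Among the zinc exporters, Slc30a1 and Slc30a5 were lower in both lines and the others of the 5 expressed members lay close to the control. Slc30a1 (ZnT1), which exports zinc across the plasma membrane, was scarce at 0.749 FPKM in the control, 0.362 in shGR1 and 0.616 in shGR2 (-0.67 ± 0.54), roughly 140, 68 and 129 fragments. Its hairpins differed widely, with 48.3% of the control in shGR1 and 82.3% in shGR2, and limma gave an adjusted p of 0.6346.

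Slc30a5 (ZnT5), which loads zinc into the early secretory pathway, stood at 28.9 FPKM in the control line and at 20.2 and 20.8 FPKM in the shGR1 and shGR2 lines. Its hairpins were close to each other, with a mean log2 ratio of -0.49 ± 0.03 and 70.1% and 72.2% of the control (limma adjusted p 0.2876). Slc30a6 (ZnT6), its partner in a zinc-transporting heterodimer, was at 11.3, 11.4 and 9.89 FPKM and lay on both sides of the control. Slc30a7, another Golgi exporter, was at 16.2, 16.1 and 16.9 FPKM, and Slc30a9, which acts on mitochondrial zinc, at 36.6, 34.3 and 38.3 FPKM. For these 3 genes the mean log2 ratio lay between -0.09 and 0.03.

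The zinc importers had the most expressed members, 10 of 14, and were split: 5 were lower in both lines, 3 higher and 2 on both sides. Slc39a14 (ZIP14), which also carries iron and manganese, was the most abundant ZIP in all 3 libraries, at 126 FPKM in the control, 73.0 in shGR1 and 85.6 in shGR2. Both knockdown lines were well below the control, at 57.9% and 67.9% (-0.67 ± 0.16, limma adjusted p 0.2876). Its leading transcript of 4926 nt followed the same order at 68.4, 38.6 and 49.3 FPKM.

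Slc39a1, a plasma membrane importer, was at 50.7 FPKM in the control, 46.5 in shGR1 and 42.0 in shGR2 (-0.20 ± 0.10). Slc39a9, found on the Golgi and plasma membrane, was at 37.5, 35.9 and 31.6 FPKM (-0.15 ± 0.13). Slc39a3 and Slc39a11 were the other importers lower in both lines, at 8.90, 8.27 and 7.11 FPKM (-0.22 ± 0.15) and at 11.3, 8.94 and 7.62 FPKM (-0.45 ± 0.16). All 4 shifts lay within the middle 80% of expressed genes, from -0.63 to 0.48.

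In the other direction, Slc39a10 (ZIP10), a plasma membrane importer, had the highest ratio among members over 1 FPKM. It was at 5.83 FPKM in the control, 14.5 in shGR1 and 7.76 in shGR2, or 248% and 133% of the control (0.86 ± 0.64), roughly 1142, 2852 and 1656 fragments. shGR1 carried most of this difference, and limma gave an adjusted p of 0.4821. Slc39a6 (ZIP6), its close relative and partner, was at 12.3, 14.0 and 12.3 FPKM (0.09 ± 0.13), with shGR2 level with the control. The Slc39a6 coding transcript of 3882 nt was level in all libraries, at 12.3, 12.2 and 12.3 FPKM. The higher sum in shGR1 came chiefly from a 529 nt retained-intron transcript, at 0, 1.69 and 0 FPKM.

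Slc39a4 (ZIP4), the importer that takes up dietary zinc in the intestine, was at the limit of detection at 0.169, 0.421 and 0.257 FPKM, roughly 13, 34 and 23 fragments (0.96 ± 0.50). It passed the expression limit through shGR1 alone, so its place among the higher genes was partly set by the filter. Slc39a7 (ZIP7), which releases zinc from the endoplasmic reticulum, was at 66.3, 66.8 and 61.0 FPKM, and Slc39a13 (ZIP13), an intracellular importer needed in connective tissue, at 40.2, 37.8 and 42.6 FPKM. Neither was on the same side of the control in both lines.

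**Figure D3:**
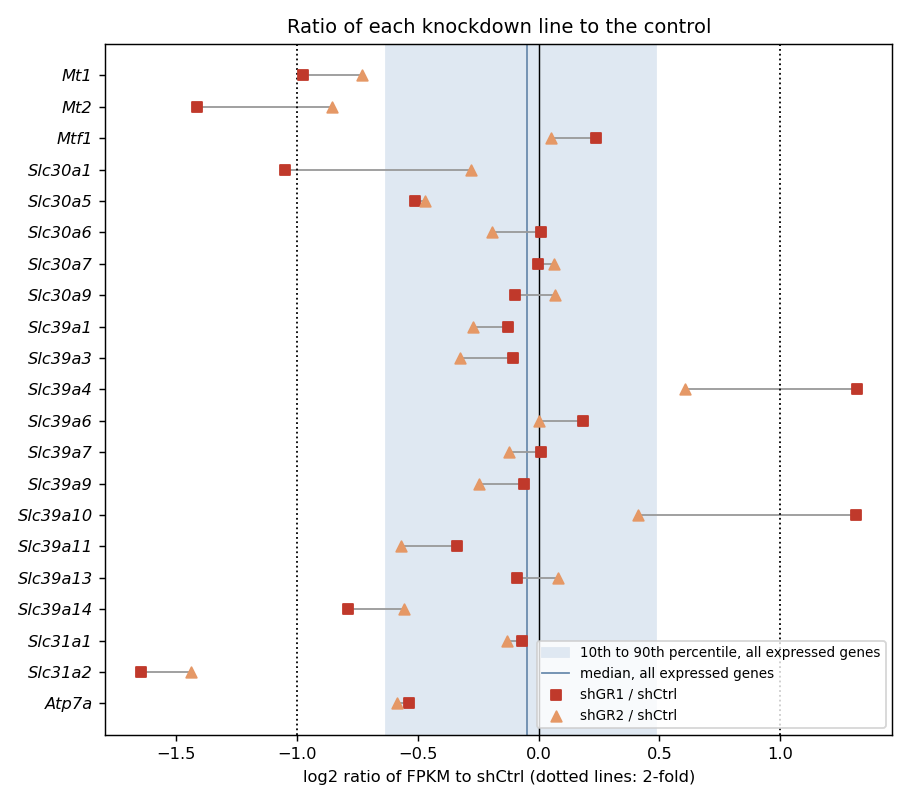
Log2 ratio of FPKM to shCtrl for the 21 expressed members with a ratio in both lines, 1 point per knockdown line, with the middle 80% of all expressed genes shaded. Slc31a2 lies past the 2-fold line in both lines, Mt2 and Slc30a1 in shGR1 alone, and Slc39a4 and Slc39a10 lie past it on the high side in shGR1 alone.

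Transcripts are given for 3 ZIP genes, Slc39a3, Slc39a7 and Slc39a11, whose 2 highest transcripts lay on opposite sides of the control in both lines, in Slc39a11 with the leading transcript nearly level. Minor transcripts of other ZIP genes, such as Slc39a9 and Slc39a14, also differed in direction. For Slc39a3 the protein-coding transcript of 3796 nt was at 6.0, 2.81 and 3.47 FPKM (-0.94 ± 0.22), whereas the 3680 nt transcript was at 1.89, 3.99 and 2.47 FPKM (0.73 ± 0.49), and the leading transcript differed between shCtrl and shGR1. For Slc39a7 the coding transcript of 2244 nt was at 44.4, 30.2 and 30.0 FPKM (-0.56 ± 0.01), while a retained-intron transcript of 2433 nt was at 16.7, 26.4 and 22.1 FPKM (0.53 ± 0.18). A shorter retained-intron transcript of Slc39a7, of 844 nt, was at 1.05, 4.86 and 5.75 FPKM.

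For Slc39a11 the leading transcript of 2664 nt was level, at 4.59, 4.73 and 4.67 FPKM, and the lower sum came from shorter models, chiefly one of 742 nt at 2.81, 0.853 and 0.685 FPKM (-1.88 ± 0.22). The split of fragments between overlapping transcript models is an estimate by the quantifier, and had no error here. Of the Slc39a7 exons, 85.99% is shared with the same-strand model Gm20427, which reached 0.829 FPKM.

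**Figure D4:**
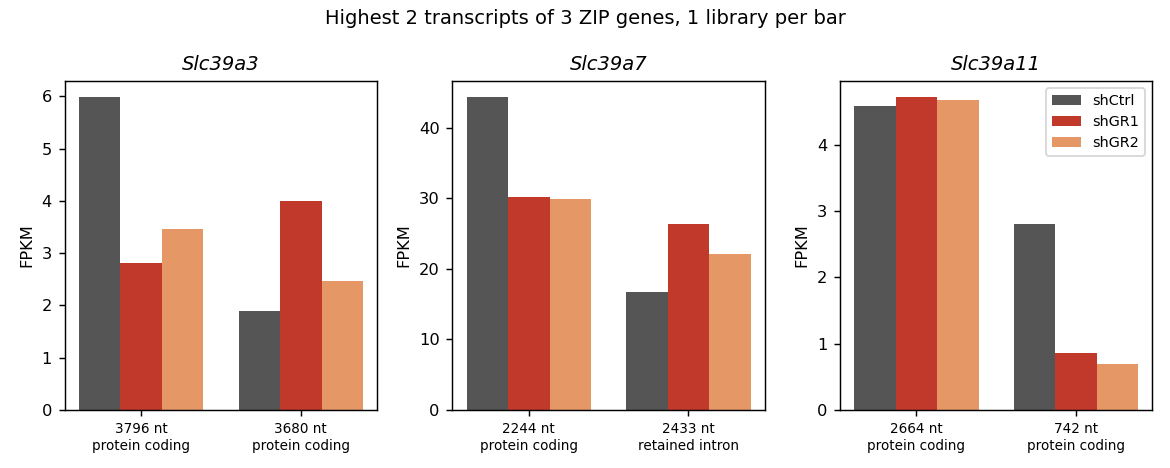
FPKM (vertical axis, from 0) of the 2 highest transcripts of Slc39a3, Slc39a7 and Slc39a11 in each library, 1 library per bar and so with no error bars. In Slc39a3 and Slc39a7 the 2 transcripts lie on opposite sides of the control, and in Slc39a11 the 742 nt transcript alone is far below it.

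The copper genes held the lowest ratio of all members. Slc31a2 (Ctr2), an intracellular relative of the copper importer that affects its processing, was at 20.3 FPKM in the control, 6.50 in shGR1 and 7.49 in shGR2. Both knockdown lines were at about the same low level, 32.0% and 36.9% of the control (-1.54 ± 0.14), roughly 1306, 425 and 544 fragments. It was the 290th lowest of 15025 genes with a ratio, and limma gave a log2 difference of -1.53 ± 0.17 (SE) with an adjusted p of 0.2333, the smallest among the members.

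Slc31a1 (Ctr1), the high-affinity copper importer of the plasma membrane, was nearly level at 17.6, 16.7 and 16.1 FPKM (-0.10 ± 0.04). The 2 genes lie on chromosome 4 (GRCm38), Slc31a2 at 62262562 to 62298411 and Slc31a1 at 62360727 to 62391769, both on the plus strand, and differed in how far they lay from the control. Atp7a, the copper pump, was at 15.6, 10.7 and 10.4 FPKM, or 69.0% and 66.7% of the control (-0.56 ± 0.03, limma adjusted p 0.2966). Its 4 transcripts over 0.3 FPKM were all lower in both lines.

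**Figure D5:**
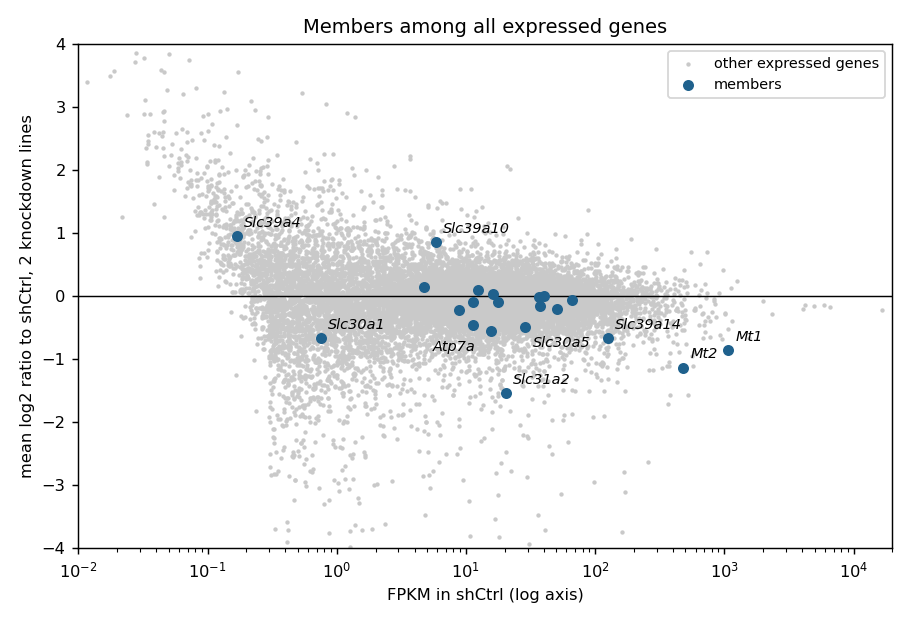
Mean log2 ratio over the 2 knockdown lines (vertical axis) against FPKM in shCtrl (horizontal log axis) for the 15025 expressed genes with a ratio, members in colour. Outside the axes lie 24 genes, past 4 in size on the vertical axis or left of the lowest FPKM drawn. Slc31a2 (-1.54), Mt2 (-1.13) and Mt1 (-0.85) lie low among genes of their abundance, and Slc39a10 (0.86) lies high. Slc39a4 (0.96) lies where shCtrl is under 0.3 FPKM, so that genes there passed the filter only by being higher in a knockdown line.

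The 11 members that were not expressed were Mt4, Slc30a2, Slc30a3, Slc30a4, Slc30a8, Slc30a10, Slc39a2, Slc39a5, Slc39a8, Slc39a12 and Atp7b. Slc30a8, the exporter of pancreatic beta cells, was at 0 in all 3 libraries. The nearest to the limit were Atp7b, the copper pump of liver, at up to 0.299 FPKM, Slc39a2 at up to 0.291 and Slc39a5 at up to 0.268, and the next above it were Mt3 at 0.378 and Slc39a4 at 0.421. Slc39a8 (ZIP8), a close relative of Slc39a14, was at up to 0.234 FPKM, and Slc39a12 at up to 0.189.

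Further genes of metal handling were read beside the members. For comparison with each count, 43.8% of all expressed genes were lower in both lines and 31.8% higher. Of 16 copper-handling genes 14 were expressed, of which 10 were lower in both lines and 3 higher (median -0.20): Slc25a3, the mitochondrial phosphate and copper carrier, was at 269, 235 and 259 FPKM, Sod1, the copper- and zinc-dependent superoxide dismutase, at 163, 94.5 and 117, and Steap2, a metalloreductase, at 67.9, 67.6 and 58.9. Of 7 other zinc genes 6 were expressed, 3 lower and 0 higher (median -0.05): the channels Trpm7 (49.8, 44.5 and 52.4 FPKM) and Mcoln1 (39.1, 44.1 and 37.3) and the zinc-sensing receptor Gpr39 (13.3, 14.2 and 12.6) each lay on both sides of the control. Of 15 iron-handling genes 13 were expressed, 5 lower and 3 higher (median -0.01). The highest of these were the ferritin chains, with Ftl1 at 1546, 903 and 1049 FPKM and Fth1 at 565, 271 and 314 FPKM, while Pcbp1, an iron chaperone, was at 152, 137 and 141 FPKM. Both ferritins have near-identical pseudogene copies, so their values are uncertain.

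Of 13 genes of the metal and oxidative stress response 12 were expressed, 9 lower in both lines and 0 higher (median -0.36), where 43.8% of all expressed genes were lower and 31.8% higher. Nqo1, a quinone reductase, was at 153, 59.9 and 96.4 FPKM, Nfe2l2, the activator of the antioxidant response, at 143, 94.2 and 124 FPKM, and Prdx1, a peroxidase, lay on both sides of the control at 189, 200 and 179 FPKM. Gclc (-1.21 ± 0.39), the catalytic subunit of glutathione synthesis, Hspa1b (-1.33 ± 0.47), a heat shock protein, and Hmox1 (-0.64 ± 0.09), the haem oxygenase, were lower in both lines. They were chosen after their values were seen, so their low ratios say nothing further about the list. Srxn1 (-0.29 ± 0.08) and Gclm (-0.16 ± 0.09) were less far below the control. The mean log2 ratios of the 12 ran from -1.33 to 0.04, with Gsr (0.04) and Txnrd1 (0.03) at the upper end.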

How the data were processed

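RNA-seq of total RNA was compared in 3 libraries, shCtrl (1) and shGR (2 hairpins). The authors deposited FPKM values for 128603 Ensembl transcripts; the tools in the submitters' processing notes are bcl2fastq 2.20, Cufflinks 2.2.1, Cuffdiff and HISAT2, the last with no version. The notes name GRCm39, but for 98.6% of 128066 transcripts the deposited locus spans the position in GENCODE M21 (GRCm38), so positions are on GRCm38. Other deposited tables hold the authors' ratios, log2 ratios, p-values and q-values, and a subset at 2-fold, and were not used. FPKM were summed per symbol, and expressed genes were those above 0.3 FPKM in at least 1 library. Ratios were taken with no pseudocount. limma 3.58.1 (R 4.3.3) was run on log2(FPKM + 0.1) over 15438 genes with an abundance trend and Benjamini-Hochberg adjustment, and was tested on simulated data. Read counts were not used, so counting error is not given; rough fragments were derived from the smallest FPKM of single-transcript genes.

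The members and lists were chosen with earlier results of these data known. All 33 members were named. From each further list of metal genes, members 2-fold apart from shCtrl in both lines were named first (up to 4), then the highest in shCtrl up to 3 names. Transcripts were named where the leading one differed between libraries or the 2 highest moved oppositely. The settings varied were the filter, the pseudocount, 4 scalings, the single highest transcript, the limma options and each library left out.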

Additional observations from a re-analysis of the deposited data

How the results depend on the processing

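Of the single-member values recomputed under the alternatives, 210 moved by less than the SD between hairpins and 17 moved by more. A further 2 turned the direction of a member that lay on 1 side of the control. Both did so with the single highest transcript in place of the sum, where Slc39a6 was at -0.0037 and Slc39a11 at 0.033. The leading transcripts of these genes were nearly level with the control, so the mean ratios of their sums rested on minor transcripts. A change of filter leaves the ratio of a gene as it is, and leaving out a line always moves the mean by less than that SD. The values unmoved under those settings were thus fixed in advance and are no check on single members. The mean of all 5 members with a ratio that lay on both sides of the control (Slc30a6, Slc30a7, Slc30a9, Slc39a7 and Slc39a13) also changed sign under at least 1 alternative, to at most 0.0815 in size. Leaving out a knockdown line gave 14 to 16 members lower, 6 to 8 higher, 1 to 4 at least 2-fold lower and 1 to 2 at least 2-fold higher, with a median log2 ratio of -0.22 to -0.10. Without shGR2, 4 members were at least 2-fold lower (6.94% of all expressed genes were) and 2 at least 2-fold higher (5.34%). Without shGR1, 8 were higher (41.5%). With no filter 3 members were at least 2-fold lower in both lines, for which the share of all genes is not given. Besides Slc31a2 these were Slc30a2, at up to 0.051 FPKM, and Slc39a12, at up to 0.189, both below the expression limit. limma called 110 genes with robust moderation (82 lower and 28 higher, 0 of them members) and 0 under the other alternatives, where the smallest adjusted p was 0.05041, with a pseudocount of 1 FPKM; the cause was not tested. No paired analysis was possible because the control had 1 library. The single control could not be left out. Few fragments lay behind the values of Mt3 (roughly 2, 0 and 8 in shCtrl, shGR1 and shGR2) and Slc39a4 (roughly 13, 34 and 23). Slc30a1 had more, roughly 140, 68 and 129, and the part of depth in its difference between hairpins was not tested.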
